A study of Mus musculus with 13 samples.

Results

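The genes described here are the cadherins and protocadherins, the 92 of 50508 genes in the count tables whose symbol is Cdh with a number or starts with Pcdh. They were followed in single neurons of mouse dorsal root ganglia (DRG), sorted for tdTomato 1 per well into 13 plates of 96 wells. Plates are the replicates. The 2 e14.5 plates held proprioceptor progenitors labelled by TrkC:tdTomato, a reporter of the neurotrophin receptor TrkC that, in the study's account, also marks Merkel cell afferents. The 2 p0, 4 p12 and 5 adult plates (adult mice were over 56 days old) held neurons labelled through PV:Cre+/-;Rx3:Flp+/-;Ai65+/-, which requires that a cell has expressed both *PV* and *Rx3* at some time. The study noted that a few afferents other than those of muscle also carry this second label. DRG came from all levels of mice of either sex, and the animals behind each plate were not given, so the spread between plates may be technical. By the study's account the adult neurons came from fewer experiments than there are adult plates, so some of these plates share an experiment, and which was not given. Because the reporter changed together with the stage, p0 against e14.5 and the change of label cannot be told apart.

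Proprioceptors report muscle length and tension to the spinal cord. Group Ia and group II afferents end on muscle spindles (MSs), and group Ib afferents end on Golgi tendon organs (GTOs). Classical cadherins bind their own kind across a cell contact and are tied to actin through catenins. Type I classical cadherins are widespread, whereas type II cadherins often differ between neuron types. Clustered protocadherins are chosen in combinations by single neurons and let branches of 1 neuron recognise each other. Non-clustered protocadherins are grouped into delta-1 and delta-2 members by their cytoplasmic motifs, and delta-2 members can bind the WAVE complex, which drives actin branching.

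The authors had kept 208 adult, 154 p12, 55 p0 and 169 e14.5 neurons, 586 of 1248 wells. Mean depth was 33828 to 59682 UMIs (unique molecular identifiers) per kept neuron on adult plates, 21753 to 65165 on p12 plates, 38306 to 44139 on p0 plates and 9669 to 13061 on e14.5 plates. All 96 well barcodes were used on every plate. The p12 replicates 1 and 2 held 12 and 13 kept neurons, all of clusters 2 and 3, and replicates 3 and 4 held 67 and 62, all of clusters 1, 4 and 5. Adult clusters 2 and 4 lay on replicates 1 and 2 only. Defining markers of the label were present, since none of 6 proprioceptor markers was at 0 on any plate, and *Pvalb* averaged from 622 CPM (a neuron's UMIs of the gene scaled to 1e6 UMIs, averaged over the neurons of a plate) at e14.5 to 3577 CPM at p0. The summed level of 10 glial markers moved with stage, from 70.0 CPM ± 5.32 at e14.5 (SD, n = 2 plates) through 837 ± 129 at p0 (n = 2) and 3036 ± 111 at p12 (n = 4) to 4399 ± 419 in the adult (n = 5), with between 4 and 6 of the 10 at 0 on the e14.5 plates and at most 1 at 0 on the adult plates. The single markers did not all move this way. Of the 6 of the 10 that were tested, 4 were called higher at p0 than at e14.5 (*Apoe*, *Fabp7*, *Mbp* and *S100b*). From p0 to p12 *S100b* was called higher (log2 difference 3.20) and *Fabp7* lower (-1.39), and from p12 to the adult *S100b* was called higher (0.53) and *Mbp* lower (-1.20). The part of these markers in the stage differences below was not tested.

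Among the 92 genes, 83 had at least 1 UMI in the kept neurons, 9 had none, and 34 had fewer than 10, those without one included. The 12543 UMIs of the cadherins and protocadherins were spread unevenly over families. The delta-1 protocadherins (*Pcdh1*, *Pcdh7*, *Pcdh9* and *Pcdh11x*) held 41.4% of them, the 13 type II cadherins 17.3%, the 5 delta-2 protocadherins (*Pcdh8*, *Pcdh10*, *Pcdh17*, *Pcdh18* and *Pcdh19*) 15.8% and the 5 type I cadherins 7.91%. Of the 57 clustered protocadherins, all on chromosome 18, the 22 beta genes held 7.04%, the 13 alpha genes 2.36% and the 22 gamma genes 1.75%. Among the 5 other cadherins, *Cdh13*, which is anchored to the membrane by a lipid and has no cytoplasmic tail, held 778 of 786 UMIs. UMI counts were not divided by gene length, so these shares describe where the counts lie and not how strongly one gene is expressed against another. Alpha and gamma transcripts share their last exons within each cluster, and how the deposited counts divided such reads was not given, so values of single alpha or gamma genes, and the shares and sums of both families, are uncertain. Beta genes each have a single exon of their own. Exons of *Cdh8*, *Cdh12*, *Pcdh7*, *Pcdh8*, *Pcdh10* and *Pcdh19*, 6 of the 21 genes named with values, overlap an exon of another gene, and the strand of counting was not given, so reads of the neighbour may be included.

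A neuron had UMIs of few of these genes. The mean number of cadherins and protocadherins detected per neuron was 5.87 ± 0.766 at e14.5, 13.4 ± 1.78 at p0, 11.05 ± 4.55 at p12 and 10.9 ± 0.976 in the adult (mean ± SD over plates). After each neuron was thinned to 7000 UMIs, and the 20 shallower neurons were left out, the means were 4.15 ± 0.034, 4.60 ± 0.159, 3.27 ± 0.884 and 3.44 ± 0.680. Thinning thus left much smaller differences between the stages than the full counts showed.

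The summed level of the gamma protocadherins was 28.9 CPM at e14.5, 17.96 at p0, 6.05 ± 1.62 at p12 and 10.8 ± 1.80 in the adult, and that of the alpha protocadherins 32.7, 32.2, 11.8 ± 8.74 and 10.97 ± 1.93. The beta sum stayed between mean levels of 47.0 and 60.1 CPM. Of 6 genes of the clustered families that could be tested, edgeR and DESeq2 each called 0 in any step between neighbouring stages, against 27.8%, 18.1% and 14.1% of all genes tested by edgeR. At an unadjusted p under 0.05 by edgeR there were 0 from e14.5 to p0, 2 from p0 to p12 (*Pcdhac2* and *Pcdhgc4*) and 1 from p12 to the adult (*Pcdhgc4*). The alpha and gamma sums carry the uncertainty of the shared exons. The sum over all 92 genes was 854 CPM ± 3.55 at e14.5, 880 ± 6.65 at p0, 642 ± 207 at p12 and 658 ± 123 in the adult. Both p12 replicates 1 and 2 and adult replicates 1 and 2 had higher delta-1 sums than the other plates of their stage.

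**Figure D1:**
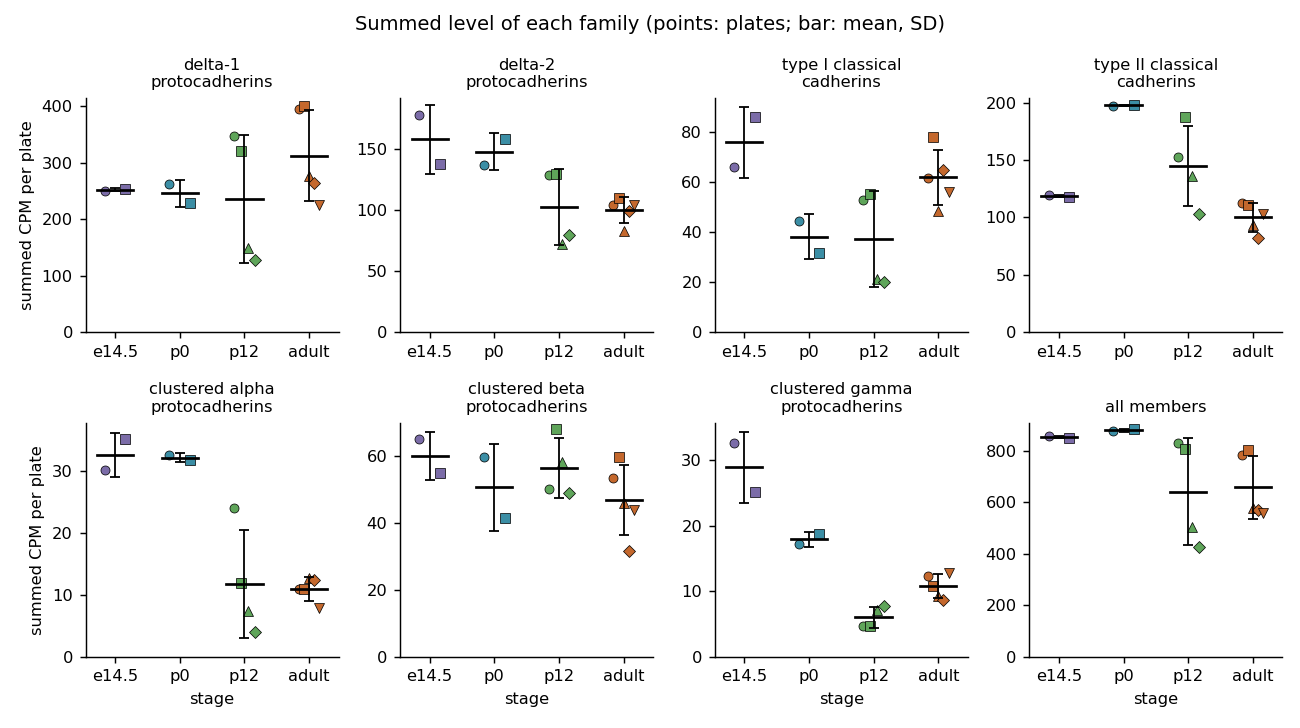
Summed CPM of each family (y axis) on each plate at e14.5, p0, p12 and in the adult (x axis). Points are plates (circle, square, triangle, diamond and inverted triangle for replicates 1 to 5), the line is the mean and the bars are the SD over plates; the gamma sum averaged 28.9 CPM at e14.5 and 10.8 CPM in the adult, while the beta means lay between 47.0 and 60.1 CPM.

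The stage comparisons ask how the expression of these adhesion genes differed between neighbouring stages, with the UMIs of all kept neurons summed per plate and fitted by edgeR's quasi-likelihood test. Neighbouring comparisons share the plates of the stage between them. A difference was called at a Benjamini-Hochberg adjusted p under 0.05 over the 11939 genes that passed a filter on low counts, 26 of the 92 among them. In bulk sums such as these, fewer neurons of a type and less RNA per neuron cannot be told apart.

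Between e14.5 and p0, *Cdh7*, *Cdh8*, *Cdh20*, *Pcdh9* and *Pcdh10* were higher at p0, and *Cdh2* and *Pcdh19* were lower. Of the 26 genes tested, 7 were called (5 higher and 2 lower), against 27.8% of all genes tested (14.7% higher and 13.1% lower). The median log2 difference of the 26 was -0.05, against 0.01 for all genes. *Cdh2* (chromosome 18, 16588877 to 16809246 in GRCm38.p6, as for all coordinates here), the N-cadherin of neural tissue, was at 38.3 and 61.8 CPM on the e14.5 plates and at 14.1 and 13.5 on the p0 plates (log2 difference -1.75, standard error 0.44, edgeR adjusted p = 0.00987). *Pcdh19* (X chromosome, 133582860 to 133689044), a delta-2 gene whose loss in human females causes an epilepsy, was at 92.9 and 60.03 CPM at e14.5 and at 25.6 and 33.0 at p0 (log2 difference -1.33, standard error 0.43, edgeR adjusted p = 0.0332). For both genes each e14.5 plate was higher than each p0 plate.

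The delta-1 gene *Pcdh9* went the other way, from 23.8 and 38.7 CPM at e14.5 to 93.5 and 90.0 at p0 (log2 difference 1.56, standard error 0.47, edgeR adjusted p = 0.0237). The delta-2 gene *Pcdh10*, known for its role in axon outgrowth, was at 31.7 and 38.2 CPM at e14.5 and 57.4 and 68.9 at p0 (log2 difference 0.79, standard error 0.23, edgeR adjusted p = 0.0220). Neither gene's plates overlapped between the stages.

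Of 7 type II cadherins tested of 13, 3 were called, all higher at p0, against 27.8% of all genes called (14.7% higher). *Cdh7* was at 3.42 and 12.5 CPM at e14.5 and 39.2 and 32.3 at p0 (log2 difference 2.19, standard error 0.61, edgeR adjusted p = 0.0160). *Cdh8* was at 14.3 and 7.43 CPM at e14.5 and 25.8 and 35.8 at p0 (log2 difference 1.39, standard error 0.40, edgeR adjusted p = 0.0181). *Cdh20* had 0 UMIs in the 169 e14.5 neurons and 11 in the 55 p0 neurons, with 5.28 and 1.59 CPM on the p0 plates, at least 3.03-fold higher when the e14.5 sum is set at a floor of 3 counts over the group. With 2 plates on each side, each of the 7 calls was lost on leaving out 1 or more of the 4 plates, and every 1 of the 4 ended some of them. Over the alternatives the highest edgeR adjusted p ran from 0.111 for *Cdh8* to 0.265 for *Pcdh19*. *Pcdh10* was also lost with DESeq2 and with no filter on low counts. *Cdh20* and *Cdh8* were also lost when e14.5 clusters 3 and 4, which the study proposed may be neurons other than proprioceptors, were taken out.

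Between p0 and p12, 3 of the 26 were called, all lower at p12, against 18.1% of all genes tested (9.1% higher and 9.01% lower). *Cdh13* (chromosome 8, 118140017 to 119324929) was at 124 and 174 CPM at p0 and 68.2, 24.4, 51.8 and 34.1 at p12 (log2 difference -1.63, standard error 0.42, edgeR adjusted p = 0.0142). *Cdh4*, the type I R-cadherin, was at 22.4 and 13.01 CPM at p0 and 12.6, 9.32, 3.72 and 6.09 at p12 (log2 difference -1.76, standard error 0.46, edgeR adjusted p = 0.0163). *Pcdh19* was at 14.2, 11.6, 7.20 and 7.95 CPM at p12, below both p0 plates (log2 difference -1.51, standard error 0.42, edgeR adjusted p = 0.0224). The plates of p0 and p12 did not overlap for any of the 3. *Cdh13* was lost without p0 replicate 2 (adjusted p = 0.156), *Cdh4* without p0 replicate 1 or p12 replicate 3 (at most 0.218), and *Pcdh19* without p0 replicate 2 or p12 replicate 3 or 4 (at most 0.250).

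From p12 to the adult, *Cdh2*, *Cdh3* and *Pcdh1* rose and *Cdh8*, *Cdh12* and *Cdh13* fell, 6 of 26 tested against 14.1% of all genes (7.57% higher and 6.56% lower). The median log2 difference of the 26 was -0.28, against 0.04 for all genes. *Pcdh1* (chromosome 18, 38185914 to 38212048), a delta-1 gene best known from epithelium, was at 2.33, 9.80, 1.47 and 3.73 CPM at p12 and 37.1, 47.9, 21.3, 26.4 and 11.6 in the adult (log2 difference 2.80, standard error 0.48, edgeR adjusted p = 0.00195). Every adult plate was above every p12 plate. *Cdh12* (chromosome 15, 20448878 to 21598421), a type II cadherin of the brain, was at 66.6, 90.8, 58.3 and 45.5 CPM at p12 and between 31.4 and 40.9 on the 5 adult plates, again without overlap (log2 difference -0.77, standard error 0.17, edgeR adjusted p = 0.0101).

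*Cdh13* was at 30.3, 19.6, 5.49, 8.14 and 3.44 CPM in the adult (log2 difference -2.15, standard error 0.39, edgeR adjusted p = 0.00297), and adult replicate 1 reached above the lowest p12 plate at 24.4 CPM. Its level was thus lower at each postnatal step that was tested, from mean levels above 100 CPM at e14.5 and p0. *Cdh2* was at 25.0, 39.4, 11.7 and 13.2 CPM at p12 and 53.3, 58.6, 38.4, 34.2 and 41.1 in the adult (log2 difference 1.22, standard error 0.29, edgeR adjusted p = 0.0124), with 2 adult plates inside the p12 range. *Cdh8* was at 38.2, 19.3, 29.5 and 25.3 CPM at p12 and 20.4, 22.9, 14.6, 10.5 and 13.1 in the adult (log2 difference -0.90, standard error 0.23, edgeR adjusted p = 0.0200). *Cdh2* was lost without p12 replicate 3 or 4 (adjusted p of at most 0.0612) and *Cdh8* without p12 replicate 3 (0.0761). *Pcdh1*, *Cdh12* and *Cdh13* were called in all 18 alternatives to this comparison that tested them.

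*Cdh3*, the P-cadherin of epithelium and placenta, was uneven between plates. It was at 4.18, 0, 0 and 0.349 CPM at p12 and at 2.62, 16.3, 4.87, 18.5 and 0 in the adult, where 1 plate held none. Pooled, 118 UMIs in the adult faced 5 at p12, a ratio of 12.0 (exact 95% interval 5.01 to 37.7, counting error only), and the fit gave a log2 difference of 3.35 (standard error 1.01, edgeR adjusted p = 0.0400). The call was lost on leaving out any 1 of 7 plates (e14.5 replicates 1 and 2, p0 replicates 1 and 2, and p12 replicates 2, 3 and 4), with an edgeR adjusted p of up to 0.141. *Cdh3* passed the filter in only 11 of the 13 fits that left out a plate. It passed through the adult plates, where it was highest, so its call was favoured by the filter.

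Genes named for the adult or for the study but not called in any stage comparison also varied. *Pcdh17* was at 45.8 and 28.3 CPM at e14.5, 37.9 and 42.3 at p0, 34.6, 20.4, 1.53 and 5.58 at p12, and 7.38 to 20.9 in the adult. *Pcdh8* was at 6.96 and 11.8 CPM at e14.5, 14.501 and 14.03 at p0, 9.11 to 29.7 at p12 and 14.1 to 34.8 in the adult. *Pcdh11x* was at 12.8 to 38.1 CPM in the adult and 43.6 and 54.7 at p0. *Pcdh7* ran from 62.0 to 198 CPM over all 13 plates, with adult replicates 1 and 2 at 197 and 198 and adult replicates 3 to 5 at 125, 97.3 and 96.0. The p12 plates split in the same way for *Pcdh9*, at 151 and 134 CPM in replicates 1 and 2 and 43.5 and 34.05 in replicates 3 and 4, the plates that also differed in their clusters.

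**Figure D2:**
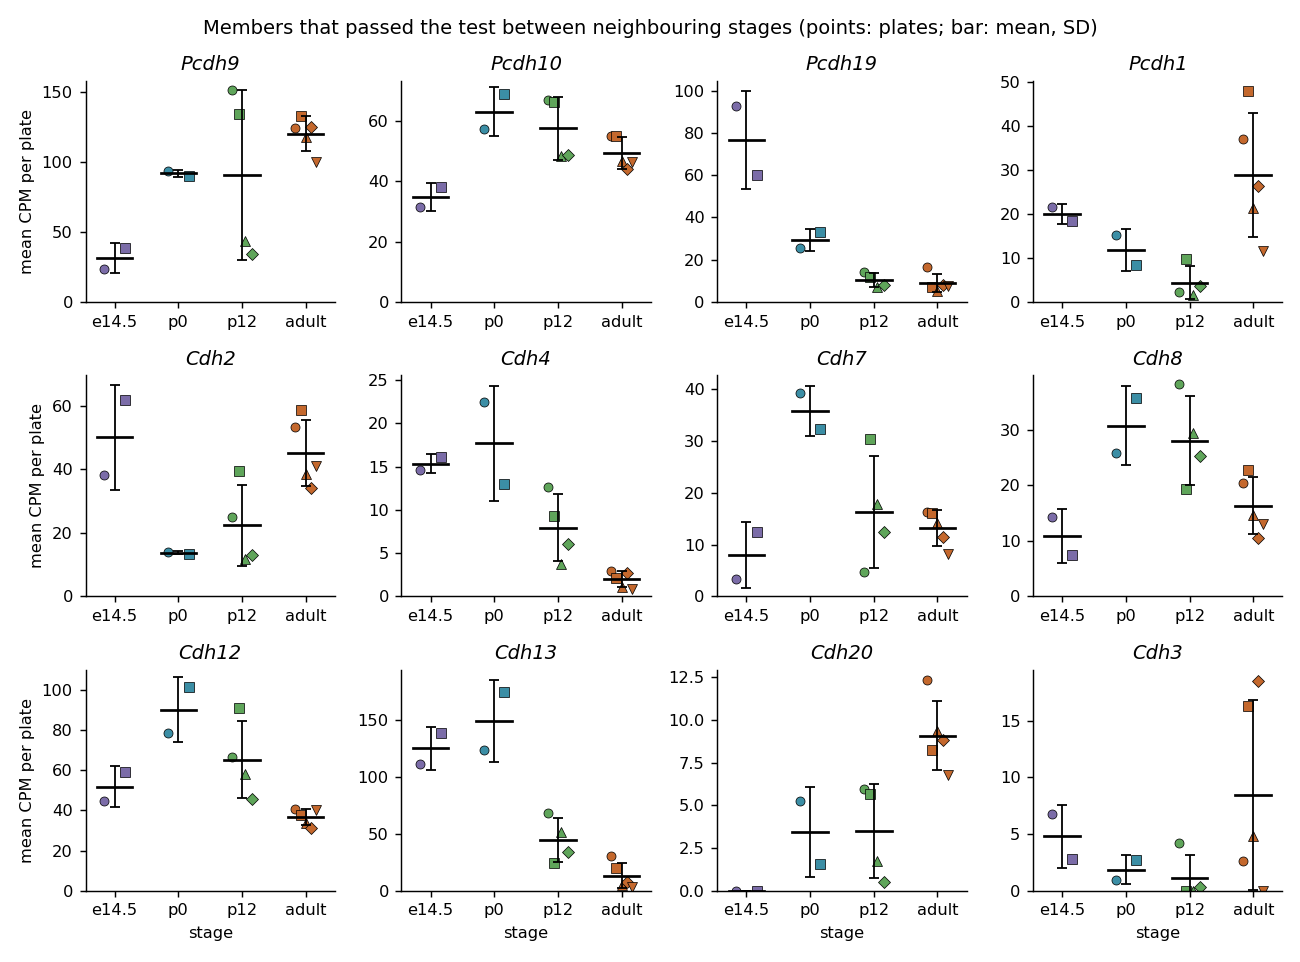
Mean CPM per plate (y axis) by stage (x axis) for the 12 genes called between neighbouring stages. Points are plates (symbols by replicate), lines are means and bars are SD over plates, drawn from 0 upwards; *Pcdh1* lay between 1.47 and 9.80 CPM on the p12 plates and between 11.6 and 47.9 CPM on the adult plates.

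The adult clusters are the authors' 5 main groups of proprioceptors, of which the study assigned clusters 1 and 5 to the group Ia afferents of MSs and the group Ib afferents of GTOs, and proposed that clusters 2 to 4 may be group II MS afferents. They held 51, 15, 41, 28 and 31 neurons, and 42 further neurons had no cluster number. The authors found the clusters in these same neurons, so the fits say how well single plates repeat each cluster and cannot support the clusters themselves. UMIs were summed per cluster and plate (at least 2 neurons a sum), and clusters were compared within plates. Of the 92 genes, 13 passed the filter on low counts, of 7370 genes in all. The comparisons share the sums of clusters 1 and 5. The summed glial markers averaged between 3954 and 4821 CPM in each of the 5 clusters, but single markers were called. In cluster 5 against cluster 1, the glial marker *Pmp22* was higher (log2 difference 2.11), and the proprioceptor markers *Etv1*, *Ntrk3*, *Spp1* and *Whrn* (-0.32, -0.69, -1.16 and -1.10) and *Maf*, a marker of other sensory neurons (-1.58), were lower. *Maf*, *Ntrk3* and *Spp1* were also lower in clusters 2 and 4 (-2.76, -0.68 and -1.30) and in cluster 3 (-1.43, -0.54 and -0.51) than in clusters 1 and 5, and *Whrn* was higher in cluster 3 (0.84). In cluster 4 against cluster 2, *Maf* and *Spp1* were lower (-3.33 and -2.12) and *Tac1*, a marker of other sensory neurons, higher (4.90). The part of these markers in the cadherin differences was not tested.

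Cluster 5 had more *Pcdh8*, *Pcdh17* and *Pcdh11x* than cluster 1, and less *Pcdh10* and *Cdh20*. These 5 of 13 genes were called, against 9.66% of all genes tested (5.32% higher and 4.34% lower), and the median log2 difference of the 13 was 0.15, against -0.0005 for all genes. *Pcdh17* had at most 4 UMIs in any other numbered cluster and passed the filter through cluster 5, so its call was favoured by the filter. The promoters of *Pcdh8*, *Pcdh17* and *Pcdh10*, and that of *Pcdh9*, which separated other clusters below, are shown because they had an entry in the reference and belong to the protocadherins called between clusters. *Cdh20* also had an entry and is not printed. The sequences are from RefSeq (GRCm38.p6) and run from 250 bases before to 50 bases after the annotated start, 5′ to 3′ on the strand of the gene. They lie at chr14:79771263-79771562 (minus strand) for *Pcdh8*, chr14:84443313-84443612 (plus strand) for *Pcdh17*, chr3:45378148-45378447 (plus strand) for *Pcdh10* and chr14:93890630-93890929 (minus strand) for *Pcdh9*. The start used for *Pcdh9* lies inside the coordinates of the gene given below and is not its outermost start. Capitals mark the letters CCAAT or, on the other strand, ATTGG.
Pcdh8: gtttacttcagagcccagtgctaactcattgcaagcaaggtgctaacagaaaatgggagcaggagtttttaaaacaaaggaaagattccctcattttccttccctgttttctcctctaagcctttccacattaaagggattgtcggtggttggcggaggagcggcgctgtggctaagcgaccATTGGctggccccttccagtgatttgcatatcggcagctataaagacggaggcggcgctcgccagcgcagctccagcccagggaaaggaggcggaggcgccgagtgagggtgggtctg
Pcdh17: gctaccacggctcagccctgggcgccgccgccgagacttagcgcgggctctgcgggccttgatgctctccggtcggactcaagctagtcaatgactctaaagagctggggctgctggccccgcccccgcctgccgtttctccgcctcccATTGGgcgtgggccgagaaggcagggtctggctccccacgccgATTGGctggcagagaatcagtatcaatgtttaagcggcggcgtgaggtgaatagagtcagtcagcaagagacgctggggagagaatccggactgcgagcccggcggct
Pcdh10: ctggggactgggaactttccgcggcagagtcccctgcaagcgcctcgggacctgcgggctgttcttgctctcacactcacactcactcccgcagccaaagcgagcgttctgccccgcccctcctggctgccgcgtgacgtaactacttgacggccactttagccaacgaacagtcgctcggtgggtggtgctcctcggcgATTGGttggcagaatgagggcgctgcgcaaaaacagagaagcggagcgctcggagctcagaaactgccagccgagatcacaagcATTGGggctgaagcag
Pcdh9: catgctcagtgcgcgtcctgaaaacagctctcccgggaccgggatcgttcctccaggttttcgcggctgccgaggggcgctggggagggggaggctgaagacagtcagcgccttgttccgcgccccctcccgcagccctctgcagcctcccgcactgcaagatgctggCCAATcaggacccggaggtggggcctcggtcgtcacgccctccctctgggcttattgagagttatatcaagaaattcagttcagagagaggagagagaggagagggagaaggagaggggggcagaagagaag
These letters, searched on both strands after the sequences had been seen, began 68 bases before the start in *Pcdh8*, 101 and 58 bases before it in *Pcdh17*, 50 bases before and 34 bases after it in *Pcdh10*, and 82 bases before it in *Pcdh9*. They occurred in 37.4% of 32851 RefSeq promoter windows of this length and in 15 of the 22 cadherins and protocadherins with an entry, in at least 1 window where a gene had several (*Pcdh9* had 2, and the first listed is shown). TGTGGT, the core letters bound by Runt-domain factors such as *Rx3*, or its reverse complement, occurred in 16.8% of all windows, in 4 of the 22, among them once in *Cdh20*, and in none of the 4 shown. A match is a description of the letters, not of binding.

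*Pcdh8* (chromosome 14, 79766772 to 79771312), a protocadherin known from synapses, was at 27.6, 107, 70.4, 67.2 and 55.7 CPM in cluster 5 on replicates 1 to 5, and at 9.71, 7.07, 3.30, 5.40 and 0 in cluster 1. Every cluster 5 value was above every cluster 1 value (log2 difference 3.46, standard error 0.42, edgeR adjusted p = 1.21e-06). It was at 11.7 and 24.4 CPM in cluster 2, at 20.9, 7.26, 27.2 and 47.4 CPM in cluster 3 on replicates 2 to 5, and at 25.1 and 0 CPM in cluster 4. The values of clusters 2, 3 and 4 overlapped one another, cluster 3 also overlapped clusters 1 and 5, and cluster 4 overlapped cluster 1. At least 1 UMI was found in 25 of 31 neurons of cluster 5 and 14 of 51 of cluster 1.

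*Pcdh17* (chromosome 14, 84443563 to 84537565), whose product brings the WAVE complex to contacts between growing axons, was at or near 0 in the other numbered clusters. It was at 13.6, 29.1, 53.3, 42.6 and 32.4 CPM in cluster 5 and at 2.50, 0, 0, 1.43 and 0 CPM in cluster 1. No plate of cluster 1 reached the lowest of cluster 5 (log2 difference 4.61, standard error 0.64, edgeR adjusted p = 2.66e-05). As stated above, *Pcdh17* passed the filter through cluster 5, so this call was favoured by the filter. Pooled, 68 UMIs in cluster 5 faced 4 in cluster 1, a ratio of 29.9 (exact 95% interval 11.2 to 113, counting error only). Clusters 2 and 3 had 0 UMIs in 15 and 41 neurons, which allows shares of up to 20.0% and 7.32% of neurons with a UMI, and cluster 5 was at least 26.5-fold higher than the 2 together. Cluster 4 had 1 UMI in 28 neurons. *Pcdh17* UMIs were found in 20 of 31 neurons of cluster 5, so 11 neurons of the cluster had none at this depth.

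The 42 adult neurons without a cluster number also carried *Pcdh17*, at 32.6, 20.6, 37.1, 52.5 and 12.5 CPM on the 5 plates. They held 83 of the 156 *Pcdh17* UMIs of the adult, more than cluster 5, in 15 of the 42 neurons. Their *Pcdh8* level, 20.8 CPM ± 9.65, was below the mean of cluster 5, 65.6 ± 28.8 (n = 5 plates each, not tested).

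*Pcdh11x* (X chromosome, 120290238 to 120910622), a delta-1 gene, was at 69.4, 52.4, 31.5, 29.1 and 38.3 CPM in cluster 5 and at 8.60, 2.43, 1.27, 1.40 and 11.5 CPM in cluster 1. Again no values overlapped (log2 difference 3.48, standard error 0.42, edgeR adjusted p = 1.45e-06). It was found in 27 of 31 neurons of cluster 5 and 11 of 51 of cluster 1. Clusters 2 and 4 were uneven between their plates, at 38.8 and 6.66 CPM and at 37.4 and 0 CPM. *Pcdh8*, *Pcdh17* and *Pcdh11x* remained called in all 12 alternatives to the comparison that could test them. All of these except the alternative with no filter on low counts kept the filter that favoured *Pcdh17*.

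*Pcdh10* and *Cdh20* were the 2 genes lower in cluster 5. *Pcdh10* (chromosome 3, 45378398 to 45434579) was at 15.2, 5.75, 10.1, 38.3 and 10.8 CPM in cluster 5 and at 29.9, 38.1, 39.0, 39.3 and 52.0 in cluster 1, overlapping through replicate 4 (log2 difference -1.23, standard error 0.29, edgeR adjusted p = 0.00492). The type II *Cdh20* (chromosome 1, 104768340 to 104995481) was at 33.0, 19.9, 29.2, 22.8 and 14.2 CPM in cluster 1, with UMIs in 40 of 51 neurons, and at 5.46, 14.8, 9.26, 7.39 and 0 CPM in cluster 5, with UMIs in 9 of 31 (log2 difference -1.87, standard error 0.48, edgeR adjusted p = 0.0105). *Cdh20* was at no more than 6.36 CPM on any plate of clusters 2, 3 and 4. The *Cdh20* call was lost without replicate 1, within replicates 1 and 2 alone and within replicates 3 to 5 alone (edgeR adjusted p of at most 0.222). *Cdh20* passed the filter in only 3 of the 5 fits that left out a replicate. It passed mainly through cluster 1, where it was high, so its call was favoured by the filter. The *Pcdh10* call was lost without replicate 2 and within replicates 3 to 5 alone (at most 0.144).

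**Figure D3:**
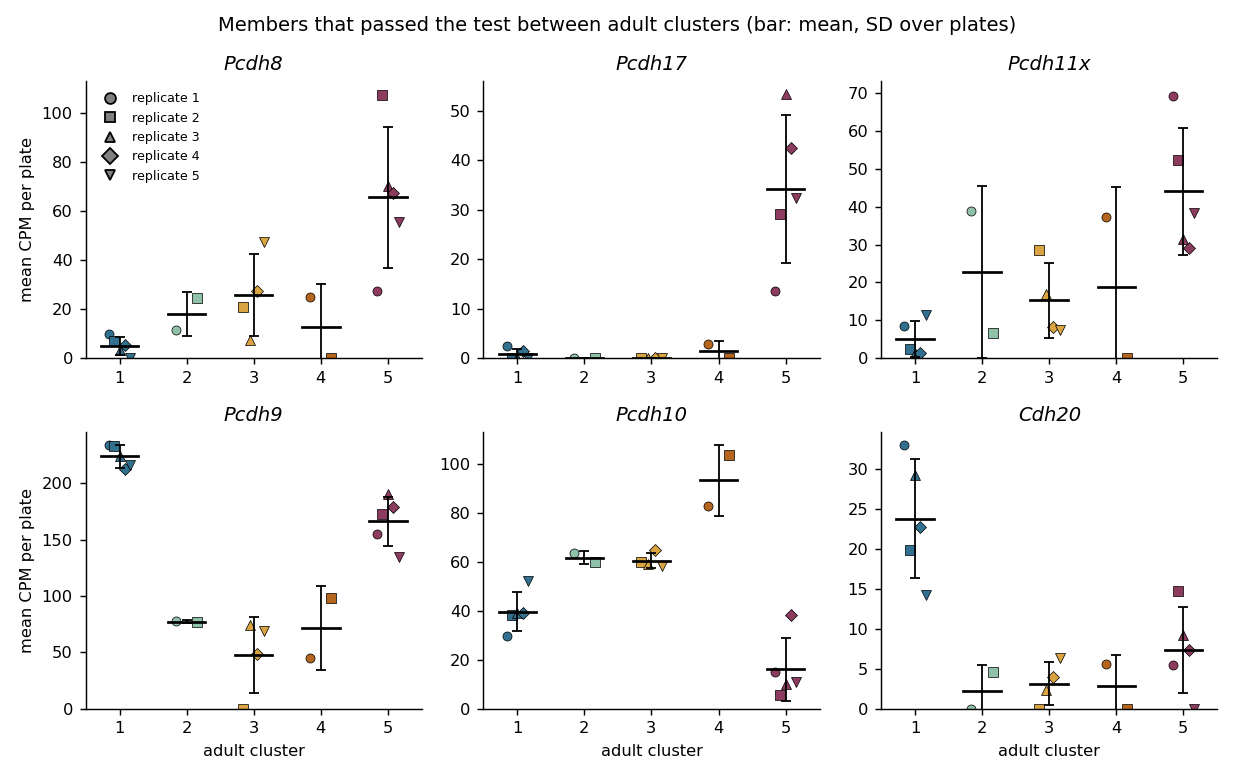
Mean CPM per plate (y axis) of 6 genes in the 5 adult clusters (x axis), for plates with at least 2 neurons of the cluster. Points are plates (symbols by replicate), lines are means and bars are SD over plates, drawn from 0 upwards; *Pcdh17* lay between 13.6 and 53.3 CPM in cluster 5 and at no more than 2.92 CPM in the other clusters, and *Pcdh9* lay between 212 and 234 CPM in cluster 1.

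Clusters 2 to 4 differed from clusters 1 and 5 in *Pcdh9* and *Pcdh10*, in opposite directions. Clusters 2 and 4 against clusters 1 and 5 gave 2 calls of 13, against 6.89% of all genes tested (3.88% higher and 3.01% lower), and cluster 3 against clusters 1 and 5 gave 2 of 13, against 5.82% (3.27% higher and 2.55% lower). In both, 1 gene was higher and 1 lower. *Pcdh9* (chromosome 14, 93013700 to 93892834) was at 234, 233, 224, 212 and 216 CPM in cluster 1 and at 155, 173, 190, 179 and 135 CPM in cluster 5, with UMIs in all 51 and all 31 neurons. It was at 78.0 and 76.6 CPM in cluster 2, 45.2 and 97.9 in cluster 4, and 0, 74.7, 48.2 and 68.8 in cluster 3 on replicates 2 to 5, where replicate 2 stood for only 2 neurons. None of these reached the lowest value of clusters 1 and 5. The log2 difference was -1.59 for clusters 2 and 4 (standard error 0.22, edgeR adjusted p = 3.24e-05) and -1.76 for cluster 3 (standard error 0.20, edgeR adjusted p = 2.36e-06). Cluster 5 against cluster 1 gave -0.37 for *Pcdh9* (standard error 0.15, edgeR adjusted p = 0.130).

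*Pcdh10* was at 63.5 and 59.9 CPM in cluster 2, 82.9 and 104 in cluster 4, and 59.96, 58.9, 64.7 and 58.3 in cluster 3, all above the highest value of clusters 1 and 5, 52.0 CPM. The log2 difference was 1.75 for clusters 2 and 4 (standard error 0.28, edgeR adjusted p = 0.000173) and 1.09 for cluster 3 (standard error 0.25, edgeR adjusted p = 0.00835). The second of these was lost without replicate 3, and within replicates 1 and 2 alone (edgeR adjusted p of at most 0.557). *Pcdh17* in cluster 3, with no UMI, gave an adjusted p of 0.0538.

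**Figure D4:**
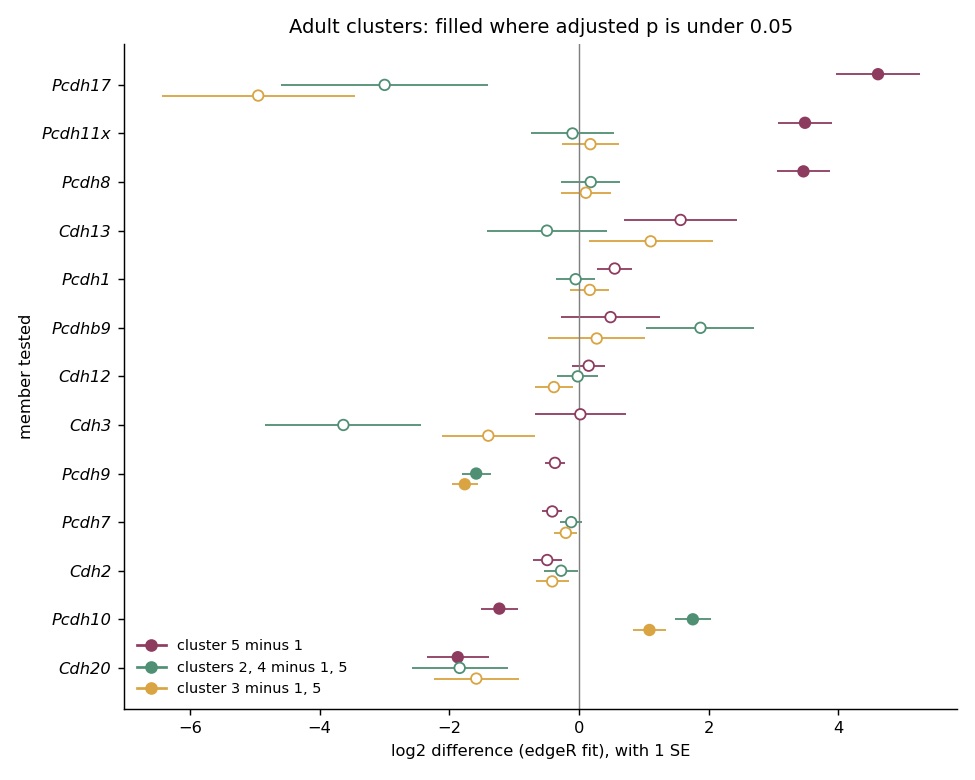
Fitted log2 differences (x axis) with 1 standard error for the 13 genes tested (y axis) in 3 comparisons of adult clusters. Filled symbols are called at an adjusted p under 0.05 and open symbols are not; *Pcdh17*, *Pcdh11x* and *Pcdh8* had the highest values of cluster 5 minus cluster 1 (4.61, 3.48 and 3.46), and *Pcdh10* and *Pcdh9* were the 2 genes called for clusters 2, 3 and 4.

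Clusters 4 and 2 did not differ in any of the 13 genes at the threshold, against 0.719% of all genes tested by edgeR (0.353% higher and 0.366% lower). At an unadjusted p under 0.05 there were 2, and DESeq2 gave 0. *Cdh13* was the larger of these by far, with 29 UMIs in 16 of 28 neurons of cluster 4 (61.1 and 30.4 CPM on its 2 plates) and 0 UMIs in the 15 neurons of cluster 2. Cluster 4 was at least 7.49-fold higher, and the edgeR adjusted p was 0.0955. *Cdh13* passed the filter through cluster 4, where it was high, so this comparison was favoured by the filter. Elsewhere *Cdh13* was at no more than 2.80 CPM in cluster 1, 5.71 in cluster 3 and 15.4 in cluster 5. In neurons without a cluster number it averaged 32.9 CPM ± 26.6 and was found in 16 of 42.

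Of the 10 genes with the highest mean CPM in the adult, *Pcdh7*, *Cdh2*, *Cdh12*, *Pcdh1* and *Cdh13* were tested between clusters and not called. *Pcdh7* was at 262 and 271 CPM in cluster 1 on replicates 1 and 2 and at 155, 112 and 110 CPM on replicates 3 to 5, and in cluster 5 at 219, 147, 122, 85.9 and 72.5 CPM. The difference between the clusters was -0.41 on the log2 scale (edgeR adjusted p = 0.0968). *Cdh2* ran from 42.0 to 81.3 CPM in cluster 1 and from 27.7 to 72.7 CPM in cluster 5, and *Cdh12* from 29.9 to 54.2 and from 21.0 to 78.4 CPM. Both pairs of ranges overlapped. *Pcdh1* ran from 0 to 32.8 CPM in cluster 1 and from 10.2 to 88.7 CPM in cluster 5, also with overlap (log2 difference 0.55, standard error 0.27, edgeR adjusted p = 0.240).

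The p12 clusters were compared only among those that shared plates, cluster 3 with cluster 2 and clusters 4 and 5 with cluster 1, since clusters 2 and 3 and the plates that held them cannot be told apart from the rest. Of 9 genes tested, *Pcdh9* and *Cdh13* were called, against 13.1% of all genes. *Pcdh9* was at 245 and 244 CPM in p12 cluster 2 and 83.9 and 101 in cluster 3, and at 143 and 192 CPM in cluster 5, 26.0 and 16.1 in cluster 1 and 38.1 and 56.2 in cluster 4 (edgeR test of any difference, adjusted p = 1.05e-07). Within both sets of plates, 1 cluster was thus well above the other or others. *Cdh13* was at 86.8 and 46.1 CPM in cluster 1, 37.5 and 11.9 in cluster 4 and 16.8 and 0 in cluster 5, and at 91.4 and 27.2 in cluster 3 and 35.6 and 15.0 in cluster 2 (adjusted p = 0.000374, edgeR). Without the plate as a block *Cdh13* was not called (adjusted p = 0.0535). The same test also called the glial markers *Apoe* and *Pmp22*, the proprioceptor markers *Ntrk3* and *Spp1*, and *Maf* and *Tac1*, and the part of these was not tested. Cluster numbers are those of the authors for each stage and are not carried over between stages here.

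At p0 none of 9 genes was called for cluster 2 against clusters 1 and 3, against 1.38% of all genes tested by edgeR (0.81% higher and 0.573% lower). There were 3 at an unadjusted p under 0.05, and DESeq2 called 0. *Pcdh17* was at 66.2 and 65.2 CPM in cluster 2, 32.7 and 45.9 in cluster 1 and 14.3 and 0 in cluster 3 (log2 difference 1.30, standard error 0.48, edgeR adjusted p = 0.281). *Cdh13* was at 54.7 and 75.5 CPM in cluster 2, 125 and 212 in cluster 1 and 238 and 154 in cluster 3 (log2 difference -1.08, standard error 0.36, edgeR adjusted p = 0.209). *Pcdh11x*, at 21.2 and 26.5 CPM in cluster 2, 60.7 and 35.6 in cluster 1 and 83.2 and 95.2 in cluster 3, had the opposite sign from the adult comparison of cluster 5 with cluster 1 (log2 difference -0.96, edgeR adjusted p = 0.403). For all 3 genes the plates of cluster 2 lay outside the range of the other clusters. How often this holds over all genes was not counted, and none of the 3 was called. *Pcdh8*, which did not pass the filter, was at 29.3 and 26.5 CPM in cluster 2, against 6.57 to 11.9 CPM in clusters 1 and 3. The summed glial markers were at 3464 CPM in p0 cluster 3, against 345 in cluster 1 and 495 in cluster 2. *Apoe* and *Fabp7* of these and *Tac1* were called lower in cluster 2 than in clusters 1 and 3. The part of these markers was not tested.

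At e14.5, 1 of 9 genes was called for clusters 3 and 4 against clusters 1 and 2, against 1.97% of all genes (0.855% higher and 1.12% lower). *Cdh11*, a type II cadherin of mesenchyme and of some neurons, was at 78.4 and 16.2 CPM in cluster 3 and 136 in cluster 4, which had at least 2 neurons on replicate 2 only. It was at 12.9 and 8.59 CPM in cluster 1 and 6.21 and 7.52 in cluster 2, without overlap (log2 difference 3.13, standard error 0.75, edgeR adjusted p = 0.0199). *Cdh11* passed the filter on low counts through clusters 3 and 4, where it was high, so its call was favoured by the filter. DESeq2 gave it no adjusted p (log2 difference 3.04, unadjusted p = 0.00631), and edgeR without the plate as a block did not call it (adjusted p = 0.0680). Cluster 3 also had the higher summed glial markers, 209 CPM against 17.9 in cluster 1 and 36.3 in cluster 2, with between 4 and 7 of the 10 at 0. In the same comparison 4 of 5 proprioceptor markers tested were called lower (*Etv1*, *Pvalb*, *Runx3* and *Spp1*, by log2 differences of -3.49, -1.40, -1.44 and -2.02), and *Maf*, a marker of other sensory neurons, was called higher (3.93). The part of these markers was not tested. *Pcdh8* had no UMI in clusters 3 and 4.

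Proteins that work with cadherins were called in some of the same comparisons. Of 8 catenins and other cadherin tail binding proteins tested of 10 listed, 3 were called between e14.5 and p0 (27.8% of all genes), 2 between p0 and p12 (18.1%) and none between p12 and the adult by edgeR (14.1%, with 2 of the 8 at an unadjusted p under 0.05). Those of the first step were *Ctnnd2*, the delta-2 catenin of neurons (log2 difference -2.18, standard error 0.48), *Jup*, or plakoglobin (-1.14, standard error 0.40), and *Pkp4*, which was higher at p0 (2.19, standard error 0.29) and lower again at p12 (-1.89, standard error 0.23). In adult cluster 5, *Jup* was the 1 catenin of 6 tested that was called against cluster 1, where 9.66% of all genes were (log2 difference 2.81, standard error 0.33, edgeR adjusted p = 1.12e-06), at 49.1 CPM ± 13.01 in cluster 5 and 5.88 ± 4.22 in cluster 1 (SD, n = 5 plates).

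Of the 9 genes of the WAVE complex, all tested between stages, 3 were called from e14.5 to p0, against 27.8% of all genes, *Abi2* lower (-2.38) and *Cyfip2* and *Nckap1* higher (0.87 and 1.09 on the log2 scale). By edgeR, 0 of the 9 were called from p0 to p12 (1 at an unadjusted p under 0.05, and 18.1% of all genes called) and 1, *Cyfip2*, from p12 to the adult (14.1%). Of 8 tested between adult clusters, *Cyfip2* was called in 2 of the 4 comparisons and no other was called. It was lower in cluster 5 than in cluster 1 (-0.48, standard error 0.11, edgeR adjusted p = 0.00556; 9.66% of all genes called) and higher in cluster 3 than in clusters 1 and 5 (0.57, standard error 0.11, edgeR adjusted p = 0.00232; 5.82%). Of 10 factors that act on the chromatin of the clustered protocadherins, 9 were tested between stages, and 1 was called from e14.5 to p0 (27.8% of all genes), 0 from p0 to p12 by edgeR (18.1%, with 1 of the 9 at an unadjusted p under 0.05) and 1 from p12 to the adult (14.1%). Both calls were of *Wapl*, which releases cohesin from DNA. It was lower at p0 than at e14.5 (-3.69, standard error 0.78) and higher in the adult than at p12 (1.77, standard error 0.55). *Ctcf*, the 1 called of 6 tested there, against 9.66% of all genes, was higher in cluster 5 than in cluster 1 (1.04, standard error 0.32).

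Among 24 genes of the cadherin superfamily outside the 92, *Ret*, a receptor kinase with cadherin-like repeats, was called most often. It was higher at p12 than at p0 (log2 difference 3.46, standard error 0.73) and in the adult than at p12 (1.34, standard error 0.34). It was lower in clusters 2 and 4 (-1.03, standard error 0.30) and cluster 3 (-2.04, standard error 0.30) than in clusters 1 and 5, the same sign as *Pcdh9*. Between e14.5 and p0, 4 of the 9 tested were called, against 27.8% of all genes, *Celsr3* and *Clstn1* lower and *Clstn3* and *Fat1* higher.

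The study removed wells by transcripts of satellite and Schwann cells, and the wells left out are compared here with the kept neurons. In the adult, 242 wells with UMIs of at least 2000 genes were left out. Summed glial markers were at 11211 to 16614 CPM in them and 3891 to 4970 CPM in the kept neurons, with at most 1 of 10 at 0. All 10 were called, 9 higher in the wells left out and 1, *S100b*, lower (log2 difference -0.15). Summed fibroblast markers were higher as well, at 17.9 to 51.6 CPM against 1.09 to 5.28. Also called were *Calca*, a marker of other sensory neurons, which was higher (log2 difference 3.51), and the proprioceptor markers *Ntrk3*, *Pvalb* and *Spp1*, which were lower (-0.25, -0.14 and -0.63). The part of these in the cadherin differences was not tested. Of 28 cadherins and protocadherins tested within plates, 7 were called, 6 higher and 1 lower in the wells left out, against 15.2% of all genes (8.79% higher and 6.36% lower).

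*Cdh19*, a cadherin of the Schwann cell lineage, was at 20.5, 29.1, 14.55, 14.7 and 11.5 CPM in the wells left out and at 0, 0.272, 0.337, 0 and 0 CPM in the kept neurons of the same plates. Pooled, 125 UMIs faced 2, a ratio of 71.9 (exact 95% interval 19.5 to 601, counting error only, edgeR adjusted p = 2.05e-08). *Cdh1*, the E-cadherin, was at 14.2 to 27.2 CPM in the wells left out and 0.147 to 3.06 in the kept neurons (log2 difference 3.53, standard error 0.34, edgeR adjusted p = 4.33e-07). With 2 and 14 UMIs in the adult kept neurons, *Cdh19* and *Cdh1* passed the filter through the wells left out. Their calls were thus favoured by the filter. *Cdh15*, the M-cadherin first known from muscle, was at 24.2 to 37.7 CPM against 0.633 to 10.9 (log2 difference 2.45, standard error 0.30, edgeR adjusted p = 7.17e-06), and *Cdh11* at 18.1 to 42.0 CPM against 5.04 to 11.8 (log2 difference 1.87, standard error 0.20, edgeR adjusted p = 2.08e-06). The wells left out and the kept neurons did not overlap for any of these 4 genes. *Cdh5*, the cadherin of endothelium, had no UMI in any kept neuron and 3 in the adult wells left out.

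The other 3 differences were smaller. *Cdh13* was 0.78 higher on the log2 scale in the wells left out (standard error 0.23, edgeR adjusted p = 0.0284) and *Pcdh10* 0.56 higher (standard error 0.13, edgeR adjusted p = 0.00549), while *Pcdh9* was lower (log2 difference -0.34, standard error 0.08, edgeR adjusted p = 0.00883). None of the 3 was called by DESeq2 or by edgeR without the plate as a block. *Cdh13* was also lost without replicate 2, 3 or 4 (adjusted p = 0.718 at its highest over the alternatives), *Pcdh10* without replicate 4 (0.0865 at its highest), and *Pcdh9* without replicate 1 or 4 (0.201 at its highest). *Pcdh8* and *Pcdh17* were at 22.9 CPM ± 8.20 and 13.03 ± 6.29 in the wells left out, beside 24.9 ± 8.64 and 12.0 ± 5.49 in the kept neurons (SD, n = 5 plates), and were not called. Catenins were higher in the wells left out for 4 of 8 tested (8.79% of all genes), *Ctnna1* by 2.43 on the log2 scale (standard error 0.20).

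**Figure D5:**
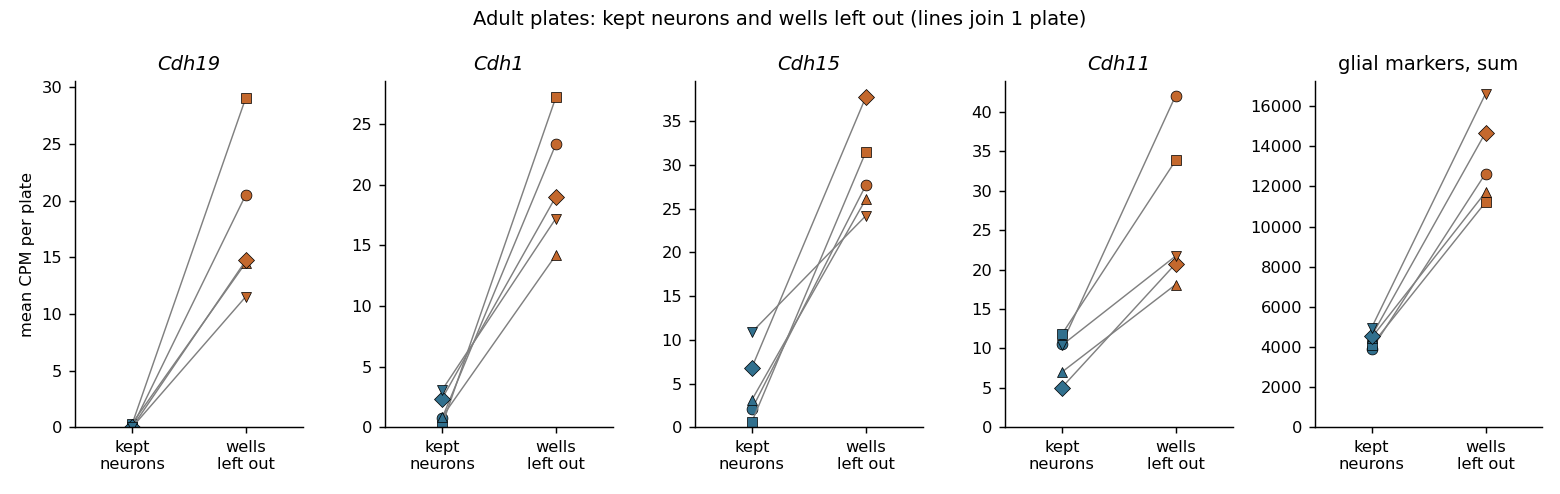
Mean CPM per plate (y axis) of *Cdh19*, *Cdh1*, *Cdh15*, *Cdh11* and the sum of 10 glial markers in the kept neurons and in the wells left out (x axis) of the 5 adult plates. Lines join the values of 1 plate (symbols by replicate); all 5 lines rise in each panel, for *Cdh19* from at most 0.337 CPM to between 11.5 and 29.1 CPM.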

How the data were processed

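Plate-seq libraries of single neurons were aligned by the authors with STAR to mm10 (GRCm38), and reads were collapsed by UMI. The deposited files hold whole-number UMI counts per gene and well, without normalization, beside the authors' annotation of stage, plate and hicat cluster of each kept neuron. The strand of counting is not given in the sources used here. The combined table of filtered neurons was not used.

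CPM was computed per neuron from all its UMIs and averaged over the neurons of a plate. UMIs were summed per plate (stages) or per cluster and plate with at least 2 neurons, and fitted with edgeR 4.0.16 (limma 3.58.1, R 4.3.3): TMM scaling, the default filterByExpr, the quasi-likelihood test and Benjamini-Hochberg adjustment over all genes tested, threshold 0.05. Cluster fits and the fit of left-out against kept wells carried the plate as a block. Sums of the same plate are from the same physical plate, and their deviations from the cluster means had a median correlation of 0.134 (e14.5), 0.041 (p0), 0.073 (p12) and 0.119 (adult), against -0.134, -0.041, -0.023 and -0.022 between plates. The sums held between 37392 and 2621380 UMIs in the tested genes. Intervals, floors (3 counts) and limits (95%) cover counting error only.

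Genes were named by rule: those called in a comparison, *Pcdh8*, *Pcdh17*, *Cdh13*, *Cdh5*, *Cdh19* and the 10 of highest mean CPM in the adult. The genes, lists and rules were chosen with earlier results of these data known. Alternatives were DESeq2 1.42.0, DESeq2's size factors, no filter, neurons thinned to 7000 UMIs, at least 4 neurons per sum, no block, e14.5 clusters 1 and 2 only, adult neurons with a cluster number only, each plate left out and, chosen after seeing the data, adult replicates 1 and 2 or 3 to 5 alone. Tested on simulated counts with genes changed by a log2 value of 1 or 2, the fit recovered 5.50% of 91 and 44.7% of 94 such genes for p0 against e14.5 (10910 genes), 29.0% of 93 and 83.5% of 97 for the adult against p12 (10900 genes), 63.5% of 96 and 96.7% of 91 for cluster 5 against cluster 1 (6796 genes), and 19.1% of 94 and 50.0% of 98 for cluster 4 against cluster 2 (6813 genes). Tables were made in Python 3.11.15 with pandas 2.3.3, numpy 2.4.6 and SciPy 1.17.1. All 92 symbols matched RefSeq. The authors' clustering was taken as deposited.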

Additional observations from a re-analysis of the deposited data

Results flagged for a closer look

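Of 40 groups of 4 or 5 plates, 2 had a plate far from the rest, where chance gives about 1 in 20. *Cdh3* was at 4.18 CPM in p12 replicate 1 and at 0 to 0.349 CPM on the other p12 plates. *Pcdh19* was at 16.7 CPM in adult replicate 1 and at 5.40 to 7.95 CPM on the other adult plates.

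The wells left out at p0 and p12 were used in no comparison, and the mean CPM per plate of several cadherins was higher in them than in the kept neurons. *Cdh19* averaged 3.16 CPM in the wells left out at p0 (0.548 in the kept neurons) and 8.83 CPM at p12 (0.524 in the kept neurons). *Cdh1* averaged 14.6 CPM in those of p0, against 2.75 in the kept neurons. *Cdh11* averaged 50.9 CPM in those of p0 and 49.9 CPM in those of p12, against 13.6 in the kept neurons of each stage. *Cdh15* averaged 8.08 CPM in those of p12, against 3.01 in the kept neurons, but 1.78 CPM in those of p0, against 1.89. The means are over 2 plates at p0 and 4 at p12. Summed glial markers were at 4199 and 10509 CPM in the wells left out of the 2 stages, and summed fibroblast markers at 39.1 and 82.3 CPM, against 5.39 and 3.15 in the kept neurons. The part of either was not tested.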

How the results depend on the processing

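No called difference changed direction under the alternatives run. Leaving out 1 plate at a time gave between 1 and 8 called cadherins and protocadherins for p0 against e14.5 (7 with all plates), 1 and 5 for p12 against p0 (3), 3 and 7 for the adult against p12 (6), 4 and 6 for adult cluster 5 against cluster 1 (5), 0 and 0 for cluster 4 against cluster 2 (0), 2 and 2 for clusters 2 and 4 (2) and 1 and 2 for cluster 3 (2) against clusters 1 and 5, 2 and 3 for any difference at p12 (2), and 4 and 7 for the wells left out (7). For the p0 and e14.5 clusters, leaving out a plate left no residual degrees of freedom. Thinning every neuron to 7000 UMIs left fewer genes past the filter. For the 3 stage steps 2, 1 and 2 were called of 11, against 22.8%, 10.0% and 11.2% of all genes. Cluster 5 against cluster 1 gave 0 of 2 (3.66%). Against clusters 1 and 5, clusters 2 and 4 gave 1 of 2 (5.64%) and cluster 3 gave 1 of 2 (3.52%). There were 0 of 2 at p12 (11.5%), 0 of 5 at e14.5 (2.17%) and 1 of 9 for the wells left out (5.96%). With no filter on low counts, 7 of 83 were called for p12 against p0, against 8.53% of all genes. The adult against p12 gave 8 of 83 (8.87%). Cluster 5 against cluster 1 gave 9 of 74 (3.70%) and cluster 4 against cluster 2 gave 1 of 74 (0.611%). The p12 clusters gave 4 of 70 (3.87%) and the p0 clusters 1 of 63 (0.844%). With at least 4 neurons per sum, 8 of 17 were called for cluster 5 against cluster 1 (9.36% of all genes). Adult replicates 3 to 5 alone gave 3 of 11 for this comparison (6.50%). Replicates 1 and 2 alone gave 1 of 16 for cluster 4 against cluster 2 (1.37%). DESeq2 called 0 of 9 for the e14.5 clusters (0.509% of all genes) and 4 of 28 for the wells left out (7.19%).

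Without the plate as a block the counts were 0 of 9 for the e14.5 clusters (1.18% of all genes) and 4 of 24 for the wells left out (4.78%). Any difference at p12 gave 3 of 9 without the block (31.5%). Of the alternatives to mean CPM, pooling the UMIs of a plate moved 9 of 84 levels by more than 1 SD, and thinning moved 59 of 84 shares of neurons with a UMI. Depth limits the genes of few counts, since 34 of the 92 had fewer than 10 UMIs.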

Other observations

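Single clustered protocadherins were found in few neurons. *Pcdhac2*, the alpha gene with most counts, had 132 UMIs in 98 of the 586 kept neurons, and *Pcdhgc4*, the gamma gene with most, 76 UMIs in 70 neurons. Both were chosen after their values were seen, and the alpha and gamma counts carry the uncertainty of shared last exons.

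In the adult, 22 of the 39 neurons with a *Pcdh17* UMI also had a *Pcdh8* UMI (56.4%), against 37.3% of the neurons without *Pcdh17*, and at p0 these shares were 59.4% of 32 neurons and 26.1%. At p12 they were 31.6% of 19 neurons and 22.2%. Deeper neurons have more UMIs of both genes, and the shares were not thinned.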
